A study of Mus musculus with 6 samples.

Results

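Transcripts that belong to the colon epithelium were followed through RNA-seq libraries of sorted colon macrophages. The 38 genes were chosen by symbol and cover the junctions, keratins and transcription factors that epithelial cells share, absorptive colonocytes, goblet cells and antimicrobial secretion. All 38 were found among the 25124 genes of the deposited expression table. There were 3 libraries from wild type C57BL/6 mice and 3 from C57BL/6 mice with macrophage-specific overexpression of E4BP4, a basic leucine zipper repressor encoded by Nfil3. The mice were 8 weeks old, and both groups had drunk 2.0% dextran sulfate sodium, which damages the colon lining, for 7 days and then plain water for 7 days, with collection on day 14. Cells came from the lamina propria through a cell sorter. The promoter behind the transgene, the sort gates and the number of mice per library are not stated in the labels used here, and untreated mice were not analysed here.

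The colonic epithelium is a single layer that is renewed from stem cells at the crypt base. Absorptive colonocytes mature towards the surface, where they take up salt, water and short-chain fatty acids, while goblet cells secrete the mucus gel and small proteins packed with it. Epithelial cells also release lectins of the Reg family and other proteins that bind bacteria, and several of these are induced by injury and by interleukin 22. Macrophages lie directly under this layer. Most of the 38 genes are known as epithelial, although leukocytes also make Ceacam1 and some macrophages make Cdh1.

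Levels are TPM (transcript abundance scaled for exon length and library depth). The libraries held 13.97 to 15.06 M reads in genes. Defining macrophage genes were high in both groups: Lyz2 was at 6669.6 and 5945 TPM, and Csf1r at 983 and 1094 TPM, in wild type and transgenic libraries. Nfil3, the overexpressed gene, was at 117, 119.9 and 119 TPM in wild type and 133, 134 and 141 TPM in transgenic libraries, a small difference with no overlap (adjusted p = 0.00261 with limma). Of 12633 genes tested with limma on log2(TPM + 1), 8.71% were higher and 13.2% lower in transgenic libraries at a Benjamini-Hochberg adjusted p below 0.05. By this split 39.8% of all calls were higher, against 70.1% with upper-quartile scaling. The number of genes called higher went from 1100 to 704 without transgenic replicate 2 and to 721 without transgenic replicate 3. Whether each library stands for another mouse is not stated in the labels, so the spread behind every p-value may be technical.

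Epithelial transcripts were a small but well-measured share of these libraries, and most were lower in the transgenic group. The 38 genes summed to 2076, 2080 and 2106 TPM in wild type and 1427, 1432 and 1430 TPM in transgenic libraries. That is 0.381% to 0.387% of the TPM of a wild type library and 0.263% of that of each transgenic library. These are shares of the deposited TPM, which summed to between 543612 and 545319 per library. The sum was 1.46-fold lower in transgenic libraries, and 1.26-fold lower with Car1, the gene with the highest wild type level, left out. In bulk samples fewer cells of a type and less RNA per cell cannot be told apart. Where the epithelial transcripts in these sorted macrophage libraries came from was not tested.

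All 38 genes passed the filter on low values, with 15 to 7460 reads per gene and library. Of the 38, 26 were lower and 4 higher in transgenic libraries (limma, adjusted p below 0.05), against 13.2% and 8.71% of all tested genes. Their median log2 fold change was -0.39, beside -0.01 over all genes tested. The 3 libraries of one group did not overlap the 3 of the other for 29 genes in the lower direction and 4 in the higher one, against 22.3% and 17.1% of all tested genes. An exact permutation test of a single value cannot give a p below 0.10 with 3 against 3 libraries, so overlap is reported in its place. Within a group the coefficient of variation had a median of 4.99% over the genes and ran from 0.369% to 24.9%.

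**Figure D1:**
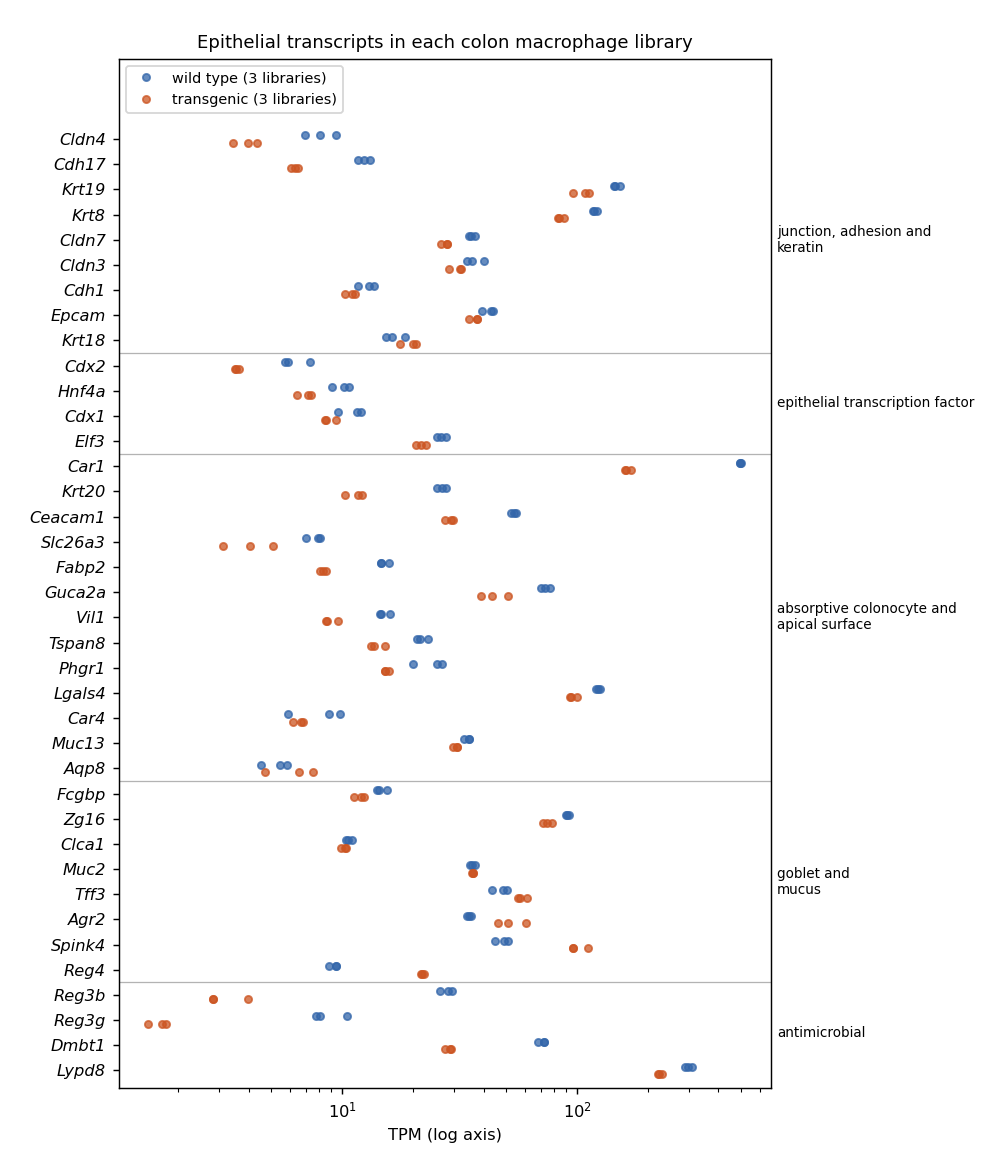
TPM of the 38 epithelial genes (log axis) in each of 3 wild type and 3 transgenic libraries, grouped by role; each point is 1 library. The groups lie apart for most genes, and Reg4, Spink4, Agr2 and Tff3 are the 4 whose transgenic points all lie above the wild type ones.

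The change was uneven between the roles. Of 13 absorptive and apical surface genes 11 fell and 0 rose, and their sum went from 905 ± 6.40 to 438 ± 7.66 TPM (n = 3 each, SD). Of 8 goblet and mucus genes 4 rose and 2 fell, and their sum went from 292 ± 8.33 to 367 ± 8.24 TPM (n = 3 each, SD). Much of that rise was Spink4, which went from 48.2 ± 3.26 to 101 ± 9.11 TPM (n = 3 each, SD). Muc2, Clca1, Fcgbp and Zg16 were not called higher. Of 4 antimicrobial genes 4 fell, of 9 junction and keratin genes 6 fell, and of 4 transcription factors 3 fell, with 0 higher in each. Median log2 fold changes were -1.58 for antimicrobial, -0.69 for absorptive, -0.38 for transcription factor, -0.37 for junction and keratin and 0.15 for goblet genes.

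**Figure D2:**
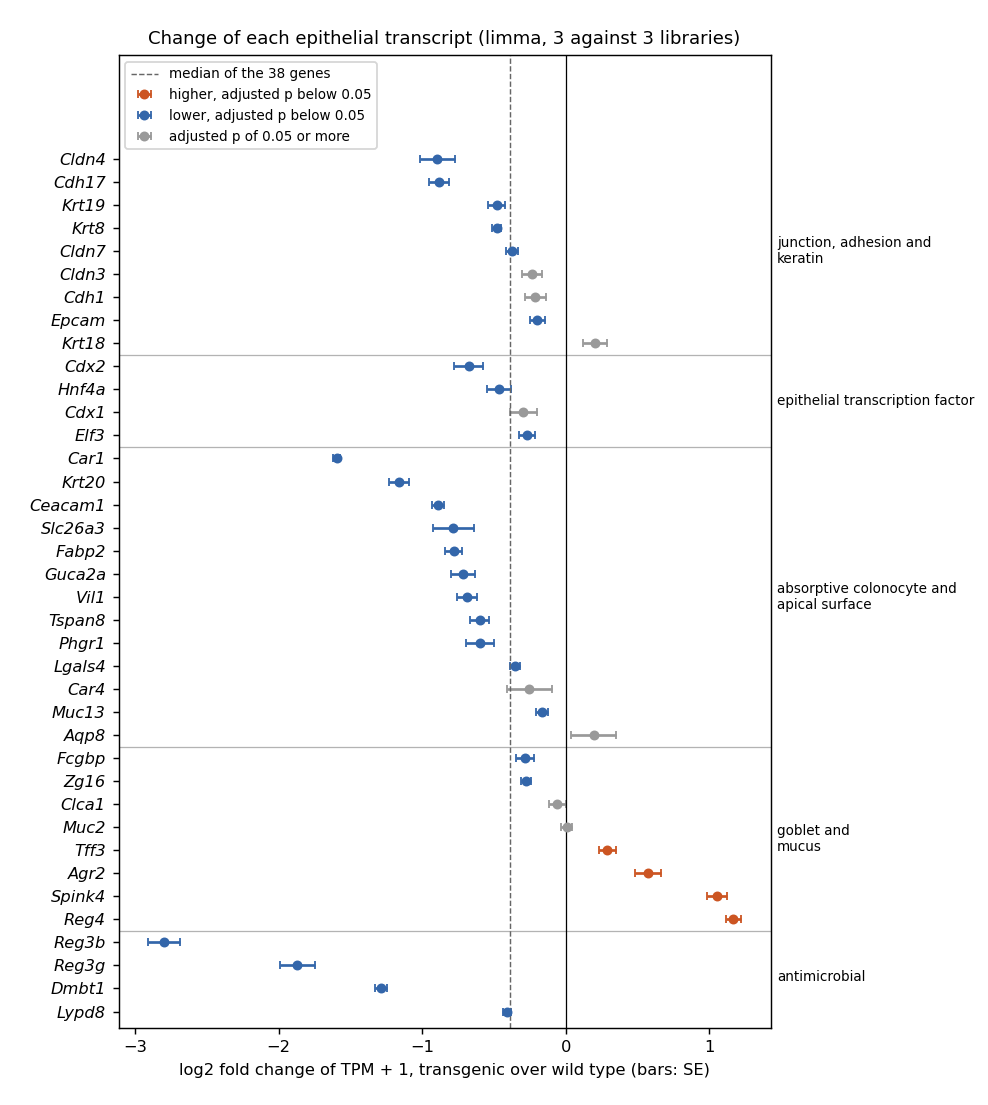
Log2 fold change of TPM + 1 (transgenic over wild type, bars are SE from limma) for the 38 genes by role. The 4 higher calls are all in the goblet and mucus role, and the lowest value, -2.80, is that of Reg3b.

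The junction, adhesion and keratin genes did not change alike, with log2 fold changes from -0.89 to 0.21. Epcam, the adhesion molecule often used to sort epithelial cells, was at 43.7, 39.5 and 43.2 TPM in wild type and 37.5, 34.8 and 37.5 TPM in transgenic libraries. The groups did not overlap, but the fall was small (log2 fold change -0.20 ± 0.052 SE, adjusted p = 0.0310 with limma). It was no longer called when wild type replicate 1 or 3 or any 1 transgenic library was left out, with no filter on low values, without limma's trend and with upper-quartile scaling (adjusted p up to 0.193 over all alternatives). Cdh1, which encodes E-cadherin, was at 12.8 ± 1.05 and 10.9 ± 0.551 TPM in wild type and transgenic libraries (n = 3 each, SD; adjusted p = 0.0823 with limma). Cdh17, the liver-intestine cadherin of lateral membranes, was at 13.2, 12.4 and 11.7 TPM in wild type and 6.28, 6.07 and 6.49 TPM in transgenic libraries. It was 1.98-fold lower (adjusted p = 9.68e-05 with limma), and the ratio of Cdh17 to Cdh1 within a library went from 0.976 ± 0.0620 to 0.579 ± 0.0390 (n = 3 each, SD). Such ratios were chosen after levels were seen and are given as description.

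The keratins of simple epithelia differed among themselves. Krt8 was at 122, 117 and 118 TPM in wild type and 88.4, 84.0 and 82.6 TPM in transgenic libraries, 1.40-fold lower (adjusted p = 6.07e-05 with limma). Krt18, its partner in keratin filaments, was at 18.6, 15.3 and 16.3 TPM against 17.7, 20.1 and 20.7 TPM (adjusted p = 0.124 with limma). The Krt8 groups lay apart while the Krt18 groups overlapped. The ratio of Krt8 to Krt18 was 6.56, 7.66 and 7.21 in the wild type and 5.0, 4.19 and 4.0 in the transgenic libraries. Of the 50-base stretches of the Krt8 transcript 26.9% also occur in the pseudogene Krt8-ps, so the split of reads between the 2 is uncertain. Krt19 fell from 148 ± 4.88 to 106 ± 8.76 TPM (n = 3 each, SD; adjusted p = 0.000920 with limma).

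The 3 claudins among the 38 genes encode proteins of tight junctions, and Cldn4 had the largest fold of these 3. Its level was 6.93, 8.08 and 9.39 TPM in wild type and 3.96, 3.42 and 4.33 TPM in transgenic libraries, 2.08-fold lower (adjusted p = 0.00159 with limma). Cldn7 fell from 35.7 ± 1.09 to 27.3 ± 0.843 TPM (n = 3 each, SD; adjusted p = 0.000798 with limma). Cldn3 was at 36.5 ± 3.15 and 30.9 ± 2.04 TPM (n = 3 each, SD; adjusted p = 0.0528 with limma), without overlap, and was called under 5 of 15 alternatives. The ratio of Cldn4 to Cldn3 was 0.194, 0.238 and 0.235 in the wild type and 0.123, 0.120 and 0.136 in the transgenic libraries, again without overlap.

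Of the transcription factors, Cdx2, a homeobox factor of intestinal identity, was at 5.85, 5.73 and 7.30 TPM in wild type and 3.49, 3.54 and 3.62 TPM in transgenic libraries. It was 1.77-fold lower (adjusted p = 0.00271 with limma). Its relative Cdx1 was at 11.1 ± 1.29 and 8.80 ± 0.562 TPM (n = 3 each, SD), groups that did not overlap but missed the threshold (adjusted p = 0.0565 with limma). Hnf4a, a nuclear receptor of enterocyte differentiation, fell from 9.98 ± 0.808 to 6.97 ± 0.50 TPM (n = 3 each, SD; adjusted p = 0.00626 with limma). Elf3, an epithelial ETS factor, was 1.22-fold lower (adjusted p = 0.0109 with limma), a call lost with upper-quartile scaling (adjusted p = 0.0635).

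Among absorptive genes the fall was led by 2 markers of mature colonocytes. Car1, the cytosolic carbonic anhydrase of colonocytes (chromosome 3 at 14766214 to 14778460 on the minus strand, mm10, NM_001083957), was at 496, 496 and 499 TPM in wild type and 160.3, 169.8 and 161 TPM in transgenic libraries. Libraries of a group lay close together and the groups far apart, with Car1 3.03-fold lower (log2 fold change -1.60 ± 0.025 SE, adjusted p = 2.99e-08 with limma). It made up 23.8% ± 0.0997 and 11.5% ± 0.348 of the summed TPM of the 38 genes in wild type and transgenic libraries (n = 3 each, SD). Of the 50-base stretches of its transcript 14.7% also occur in the predicted gene Gm5843. Krt20, a keratin of surface cells, was at 26.7, 27.8 and 25.4 TPM in wild type and 11.6, 10.3 and 12.2 TPM in transgenic libraries, 2.34-fold lower (adjusted p = 2.54e-05 with limma). Per Krt8 transcript, Krt20 went from 0.224 ± 0.0110 to 0.134 ± 0.0123 (n = 3 each, SD).

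The other brush-border and secreted genes of this role fell by smaller factors. Slc26a3, the chloride and bicarbonate exchanger of surface colonocytes, was at 7.92, 8.07 and 7.01 TPM in wild type and 3.11, 5.10 and 4.07 TPM in transgenic libraries, 1.87-fold lower. Fabp2, a fatty acid binding protein gene of enterocytes, was 1.81-fold lower, and Vil1, which bundles actin in microvilli, 1.68-fold lower. Guca2a, which encodes the peptide guanylin, went from 73.4 ± 3.45 to 44.5 ± 5.79 TPM (n = 3 each, SD), 1.65-fold lower. Phgr1 and the tetraspanin gene Tspan8 were each 1.55-fold lower. None of these 6 genes had an adjusted p with limma above 0.00647. Usp37, antisense to Vil1 and overlapping it, was at 7.13 and 6.05 TPM, and the use of strand in counting is not stated in the labels.

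Ceacam1, an adhesion receptor of epithelium and leukocytes, was at 52.5, 55.2 and 54.1 TPM in wild type and 29.6, 29.0 and 27.3 TPM in transgenic libraries, 1.88-fold lower (adjusted p = 9.55e-06 with limma). Of the 1012 distinct 50-base stretches in the Ceacam1 transcript compared, 16.9% are shared with Ceacam2, which makes the level of Ceacam1 uncertain. These stretches are fewer than the 3135 exon bases counted for Ceacam1, so part of its length may not have been compared. Lgals4, a galectin gene, went from 123 ± 2.12 to 95.9 ± 3.67 TPM (n = 3 each, SD; adjusted p = 0.000275 with limma). The Lgals6 row overlaps it on the same strand (chromosome 7 at 28834170 to 28841700, mm10) at 161 and 126 TPM, so reads of Lgals4 and Lgals6 may not have been separated. Muc13, a membrane mucin, was 1.12-fold lower (adjusted p = 0.0268 with limma). That call was lost under 8 of 15 alternatives, among them the fits without wild type replicate 2 or 3 and without each transgenic library (adjusted p up to 0.281).

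Car4 and Aqp8 were the 2 absorptive genes that were not called. Car4, a membrane-bound carbonic anhydrase, was at 8.83, 5.88 and 9.76 TPM in wild type and 6.20, 6.81 and 6.65 TPM in transgenic libraries, with wild type replicate 2 below all transgenic libraries (adjusted p = 0.299 with limma). Without that library Car4 was called lower (adjusted p with limma = 0.0149, log2 fold change -0.45). Aqp8, a water channel of colonocytes, was at 4.52, 5.46 and 5.83 TPM against 6.56, 7.5 and 4.69 TPM, and its groups overlapped (adjusted p = 0.420 with limma). A p that misses the threshold does not show that levels were alike.

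Goblet genes went in both directions. Muc2, the gel-forming mucin of the colon, was at 35.0, 35.8 and 36.9 TPM in wild type and 36.2, 35.8 and 36.2 TPM in transgenic libraries (log2 fold change 0.01 ± 0.038 SE, adjusted p = 0.919 with limma). The Muc2 groups overlapped, with 9028 and 9330 reads per group, and the sign turned without wild type replicate 1 (log2 fold change -0.01). Clca1, whose secreted product is part of the mucus, was at 10.6 ± 0.313 and 10.2 ± 0.269 TPM (n = 3 each, SD; adjusted p = 0.534 with limma), with a sign that turned with upper-quartile scaling.

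Fcgbp and Zg16, which encode a mucin-associated protein and a lectin of the mucus, were lower. Fcgbp was at 15.5, 14.1 and 14.4 TPM in wild type and 11.2, 12.0 and 12.3 TPM in transgenic libraries (adjusted p = 0.0159 with limma). It was no longer called when wild type replicate 1 or transgenic replicate 1 was left out or with upper-quartile scaling (adjusted p up to 0.0690). Of its 50-base stretches 8.55% are shared with 9530053A07Rik. Zg16 was at 90.1, 90.4 and 92.3 TPM against 74.6, 72.0 and 77.9 TPM, without overlap and 1.22-fold lower (adjusted p = 0.00120 with limma).

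The 4 genes that rose encode small secreted proteins and a folding enzyme of the secretory pathway. Reg4, a lectin of deep crypt secretory and enteroendocrine cells (chromosome 3 at 98222156 to 98236748 on the plus strand, mm10, NM_026328), was at 8.75, 9.41 and 9.44 TPM in wild type and 21.6, 22.2 and 21.9 TPM in transgenic libraries, 2.38-fold higher (log2 fold change 1.17 ± 0.054 SE, adjusted p = 7.29e-06 with limma). Spink4, a Kazal-type protease inhibitor of goblet cells, was at 44.5, 50.9 and 49.0 TPM against 96.0, 112 and 96.1 TPM, 2.10-fold higher (adjusted p = 4.76e-05 with limma). Every transgenic library was above every wild type library for both genes. Agr2, the disulfide isomerase needed for Muc2 folding, was at 34.2, 35.3 and 34.5 TPM against 51.0, 45.9 and 60.4 TPM, 1.51-fold higher (adjusted p = 0.00294 with limma). Tff3, a trefoil peptide of mucosal repair, was at 43.6, 50.4 and 48.4 TPM against 56.3, 61.1 and 57.2 TPM, 1.23-fold higher (adjusted p = 0.0102 with limma). For Tff3 the authors' deposited table gave an adjusted p of 0.0743, and the ratio of Spink4 to Muc2 went from 1.34 ± 0.0745 to 2.81 ± 0.275 (n = 3 each, SD).

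All 4 antimicrobial genes fell, led by the lectin genes Reg3b and Reg3g. Reg3b, a secreted C-type lectin that binds bacteria (chromosome 6 at 78370885 to 78373466 on the plus strand, mm10, NM_011036), was at 26.1, 28.2 and 29.5 TPM in wild type and 3.96, 2.82 and 2.81 TPM in transgenic libraries, from 790 and 93 reads per group. It was 8.75-fold lower (log2 fold change -2.80 ± 0.112 SE, adjusted p = 3.55e-06 with limma) and ranked 1 of 12633 tested genes from the most negative on this scale. The rank was 1 or 2 with a library left out, 18 with a pseudocount of 0.1, 13 in the authors' deposited table and 40 on the authors' log2 values. Reg3g, a related lectin directed at Gram-positive bacteria (chromosome 6 at 78466269 to 78468874 on the minus strand, mm10, NM_011260), was at 10.5, 7.76 and 8.02 TPM against 1.49, 1.70 and 1.77 TPM, from 252 and 49 reads per group. It was 5.30-fold lower (adjusted p = 4.59e-05 with limma). Both groups of libraries lay apart for both genes, which the exocrine pancreas also makes when injured. Refitted on the authors' log2 values, which are regularized and draw genes with few reads towards no change, the log2 fold changes of Reg3b and Reg3g were -0.72 and -0.24. In the authors' deposited table they were -3.19 and -2.22.

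Dmbt1, a scavenger receptor glycoprotein that agglutinates bacteria, was at 72.5, 72.2 and 68.2 TPM in wild type and 27.4, 28.9 and 29.2 TPM in transgenic libraries, 2.49-fold lower (adjusted p = 1.13e-06 with limma). Lypd8, which binds the flagella of bacteria near the colon surface, was at 297, 289 and 308 TPM against 223, 229 and 221 TPM, 1.33-fold lower (adjusted p = 5.30e-05 with limma). Neither gene's groups overlapped. Lypd8 ranked below Car1 alone in mean TPM among the 38 genes in wild type libraries and above all of them in transgenic libraries.

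The Reg genes moved in opposite directions, and the ratio of Reg4 to Reg3b was 0.335, 0.334 and 0.320 in the wild type and 5.46, 7.90 and 7.81 in the transgenic libraries. Their promoters are printed because these 3 genes include both ends of the fold changes among the 38. Each is the 250 bases before the start site from RefSeq (GRCm38.p6, the assembly of mm10), 5′ to 3′ on the gene's strand, with matches to the searched motifs in capitals. The Reg3b window is chr6:78370635-78370884 on the plus strand, the Reg3g window chr6:78468875-78469124 on the minus strand and the Reg4 window chr3:98221906-98222155 on the plus strand.
Reg3b: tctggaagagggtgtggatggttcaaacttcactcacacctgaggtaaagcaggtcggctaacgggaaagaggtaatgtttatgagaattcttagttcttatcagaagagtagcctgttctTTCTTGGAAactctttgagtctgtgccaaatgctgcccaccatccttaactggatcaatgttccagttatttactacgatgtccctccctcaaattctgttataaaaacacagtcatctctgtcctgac
Reg3g: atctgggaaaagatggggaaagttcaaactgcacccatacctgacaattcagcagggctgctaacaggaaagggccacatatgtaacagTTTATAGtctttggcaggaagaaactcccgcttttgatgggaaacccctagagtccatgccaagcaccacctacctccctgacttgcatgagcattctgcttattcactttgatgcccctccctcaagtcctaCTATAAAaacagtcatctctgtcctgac
Reg4: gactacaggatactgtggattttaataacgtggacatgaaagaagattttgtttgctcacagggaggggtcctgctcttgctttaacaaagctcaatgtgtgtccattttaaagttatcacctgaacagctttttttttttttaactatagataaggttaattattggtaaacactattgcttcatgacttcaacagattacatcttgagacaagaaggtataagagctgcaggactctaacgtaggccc

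The Reg3b and Reg3g windows were identical at 68.9% of 254 alignment columns, against 50.4% for Reg3b and Reg4 and 49.8% for Reg3g and Reg4. The motifs, searched on both strands, were TTANGTAA for E4BP4, TTTATNG for CDX factors, CAAAGTNCA for HNF4 and TTCNNNGAA for STAT factors. Reg3b held 1 STAT match, starting at -129 from the start site, and Reg3g held 2 CDX matches, starting at -161 and -28. The CDX match at -28 overlaps the letters TATAAA, which occur in the last 50 bases of the Reg3b and Reg3g windows and of 2.63% of all windows. The Reg4 window held no match to the 4 motifs. Of the 28 genes with a promoter in that set 0 held the E4BP4 letters, 5 the CDX, 1 the HNF4 and 3 the STAT letters. Of 32851 windows of the same length 2.06%, 9.81%, 1.19% and 7.02% held them. A match is a run of letters, not a site, and the lack of one says only that these letters are not in this window.

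Within each library, every gene was also set against Epcam, a choice made after levels were seen. Of the other 37 genes 20 had ratios to Epcam that were lower in all transgenic libraries than in all wild type ones, 6 had higher ratios and 11 overlapped. Over the 12632 other tested genes 5.82% had lower and 40.2% higher ratios, since Epcam itself was lower in transgenic libraries. The 6 were Krt18, Muc2, Tff3, Agr2, Spink4 and Reg4. Car1 went from 11.8 ± 0.656 to 4.49 ± 0.337 times Epcam, and Spink4 from 1.15 ± 0.136 to 2.78 ± 0.374 times Epcam (n = 3 each, SD).

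Shares of the summed TPM of the 38 genes were taken by role. Absorptive genes made up 43.2%, 43.6% and 43.2% of the wild type sums and 30.8%, 31.1% and 30.0% of the transgenic sums. Goblet genes made up 13.6%, 14.3% and 14.1% of the wild type sums and 25.0%, 25.9% and 26.0% of the transgenic sums. Neither pair of groups overlapped. Of the goblet genes, Spink4 alone held 2.31% ± 0.152 and 7.08% ± 0.628 in wild type and transgenic libraries (n = 3 each, SD). Antimicrobial genes held 19.4% ± 0.279 and 18.0% ± 0.291 (n = 3 each, SD). Most of that was Lypd8, with means of 14.3% in wild type and 15.7% in transgenic libraries. Dmbt1 went from 3.40% to 1.99%, Reg3b from 1.34% to 0.223% and Reg3g from 0.420% to 0.116%. Shares sum to the whole, so a fall of Car1 raises all others. The 12 absorptive genes other than Car1 held 19.5% ± 0.205 and 19.2% ± 0.418 of the full sum (n = 3 each, SD), with overlap, so the lower absorptive share was almost wholly that of Car1. With Car1 also left out of the sum, a choice made after the data were seen, these 12 genes held 25.6% ± 0.272 and 21.7% ± 0.475, goblet genes 18.3% ± 0.454 and 29.0% ± 0.669 and antimicrobial genes 25.5% ± 0.351 and 20.4% ± 0.408 (n = 3 each, SD), each without overlap.

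**Figure D3:**
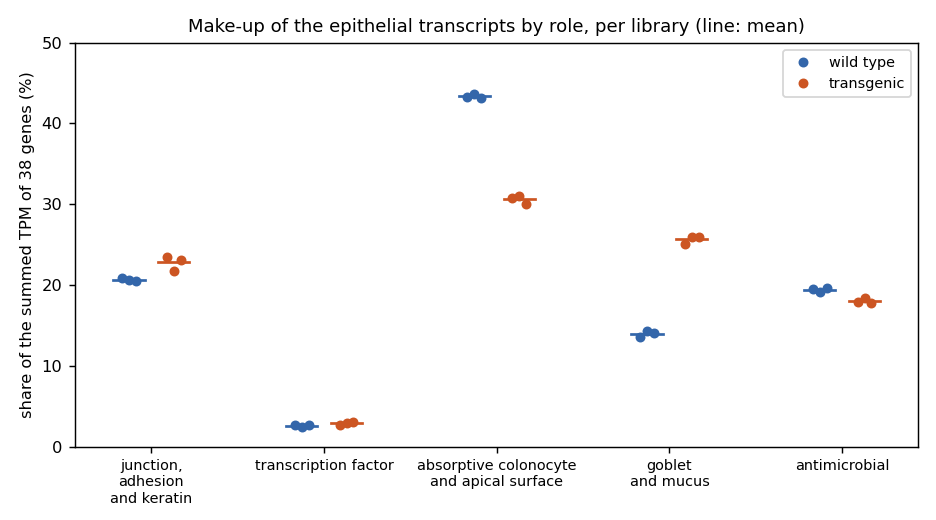
Share of the summed TPM of the 38 genes taken by each role (%), 1 point per library and a line at the mean of 3. Absorptive genes go from a mean of 43.4% to 30.6% and goblet genes from 14% to 25.6%, without overlap. Of these, Car1 goes from 23.8% to 11.5% and Spink4 from 2.31% to 7.08%. With Car1 also left out of the sum (not drawn), the other 12 absorptive genes go from 25.6% to 21.7%.

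Lists of other epithelial genes, none of them among the 38, were read in the same fit, and counts cover genes whose mean reached 1 TPM in each group. Over all tested genes, at 1 TPM in either group, 13.2% were lower and 8.71% higher. The share at 1 TPM in both groups was not worked out, so a count of a few genes in a list says little about that list. Of 16 other colonocyte genes 12 met this, and 9 fell and 0 rose. Slc51a, a bile acid transporter subunit, was at 3.87, 3.11 and 4.42 TPM in wild type and 0.596, 0.425 and 0.344 TPM in transgenic libraries and was tested only through the wild type group (adjusted p = 0.000155 with limma). Cyp2c55, a cytochrome P450 gene, fell from 70.5 ± 1.54 to 32.1 ± 1.93 TPM (adjusted p = 4.72e-06 with limma), and Cdhr2, a cadherin that links microvilli, from 9.07 ± 0.695 to 4.65 ± 0.291 TPM (adjusted p = 0.000346 with limma; n = 3 each, SD). The direction in this list was that of the absorptive genes above.

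Of 12 other goblet genes 6 had at least 1 TPM in both groups, and 3 rose and 1 fell. Klk1, a kallikrein gene, rose from 14.3 ± 2.28 to 30.9 ± 1.45 TPM (adjusted p = 0.000322 with limma), and Creb3l1, a secretory pathway transcription factor, from 7.74 ± 0.579 to 11.8 ± 0.719 TPM (adjusted p = 0.00182 with limma; n = 3 each, SD). Retnlb, a goblet cell protein active against Gram-negative bacteria, fell from 6.73 ± 0.748 to 2.19 ± 0.764 TPM (n = 3 each, SD; adjusted p = 0.00199 with limma). The choice of the next 3 genes came after their values had been seen. Spdef, a factor of goblet cell maturation, rose from 1.61 ± 0.210 to 2.63 ± 0.439 TPM (n = 3 each, SD; adjusted p = 0.0383 with limma). Among the fits with 1 library left out, Spdef was called only without wild type replicate 1 (adjusted p up to 0.122). Atoh1, the factor of secretory cell fate, was at 0.883, 0.480 and 0.263 TPM in wild type and 1.94, 1.65 and 2.67 TPM in transgenic libraries and was tested only through the transgenic group (adjusted p = 0.00899 with limma). Ang4, an antimicrobial ribonuclease, had 18 and 0 reads per group and was below the filter.

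Of 12 other epithelial defence genes 7 had at least 1 TPM in both groups, and 5 fell and 1 rose. Saa1, an acute-phase gene of enterocytes and liver, fell from 29.5 ± 2.25 to 15.1 ± 2.99 TPM (n = 3 each, SD; adjusted p = 0.00141 with limma). Lcn2 and Nos2, which myeloid cells also make, fell by 2.72 and 2.02 on the log2 scale (with limma adjusted p = 1.12e-06 and 3.19e-07). Tgm3, a transglutaminase gene, rose from 1.45 ± 0.231 to 3.18 ± 0.287 TPM (n = 3 each, SD; adjusted p = 0.00307 with limma). Reg1, a Reg gene of pancreatic acinar cells, had 4 and 47 reads per group.

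Of 24 further junction, splicing and protease genes 20 had at least 1 TPM in both groups, and 5 fell and 1 rose. The serine protease inhibitor genes Spint1 and Spint2 fell from 119 ± 2.39 to 102 ± 0.641 TPM and from 69.3 ± 5.14 to 50.1 ± 4.41 TPM (n = 3 each, SD; with limma adjusted p = 0.000851 and 0.00341). Dsp, which encodes desmoplakin, fell from 5.01 ± 0.252 to 3.24 ± 0.0558 TPM (n = 3 each, SD; adjusted p = 0.00408 with limma). Cldn2, a pore-forming claudin of crypts, rose from 1.49 ± 0.492 to 3.11 ± 0.183 TPM (n = 3 each, SD; adjusted p = 0.0118 with limma). Most of this list was not called.

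Crypt and rarer epithelial cell types were near the limit of these libraries. Of 14 crypt stem and progenitor genes 5 had at least 1 TPM in both groups, and 2 rose and 1 fell. Slc12a2, a chloride cotransporter, rose from 3.67 ± 0.114 to 6.20 ± 0.165 TPM (adjusted p = 0.000977 with limma) and Sox9 from 1.31 ± 0.272 to 2.38 ± 0.349 TPM (adjusted p = 0.0278 with limma; n = 3 each, SD). Sox9 was no longer called with wild type replicate 1 or 2 or transgenic replicate 2 or 3 left out (adjusted p up to 0.0981). Prom1 fell from 8.65 ± 0.737 to 3.39 ± 0.282 TPM (n = 3 each, SD; adjusted p = 0.000120 with limma). Of 9 enteroendocrine genes 1 had at least 1 TPM in both groups. The chromogranin genes Chgb and Chga rested on 12 and 282 reads and on 34 and 148 reads per group and were tested only through the transgenic group (with limma adjusted p = 6.04e-05 and 0.00271). Sct, the secretin gene, was at 2.42 ± 1.75 and 0.768 ± 0.441 TPM (n = 3 each, SD; adjusted p = 0.108 with limma). None of the 6 tuft genes in the table reached the filter.

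Of 13 small intestine and Paneth cell genes 3 had at least 1 TPM in both groups, and Defa24, Lct and Fabp1 had no reads in any library. Alpi, the intestinal alkaline phosphatase gene, went from 1.76 ± 0.0398 to 0.476 ± 0.155 TPM and was tested only through the wild type group (n = 3 each, SD; adjusted p = 0.00295 with limma). Rbp2, a retinol binding protein gene, was at 1.99 ± 0.834 and 1.34 ± 0.850 TPM (n = 3 each, SD; adjusted p = 0.414 with limma). Lyz1 rose from 38.9 ± 1.57 to 55.5 ± 0.747 TPM (n = 3 each, SD; adjusted p = 0.000102 with limma), and is nearly identical to the more abundant macrophage gene Lyz2, so its reads are uncertain.

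**Figure D4:**
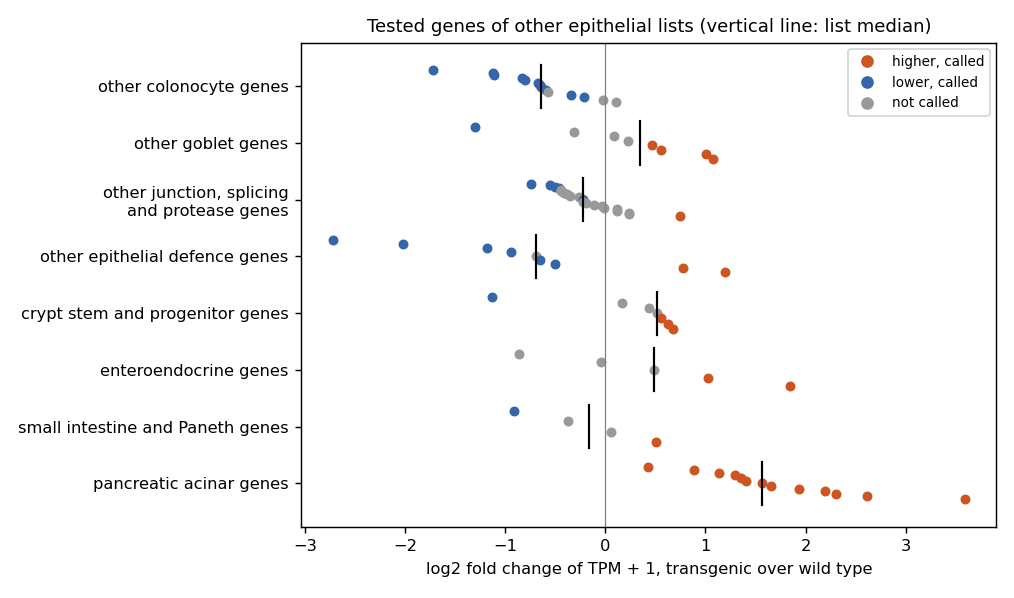
Log2 fold change of TPM + 1 (transgenic over wild type) of each tested gene in 8 further lists, with the call and the list median marked. Colonocyte genes lie mostly below 0, while all 13 tested pancreatic genes lie above it, 9 of them tested only through the transgenic group.

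Genes of other tissues and cells moved in the same libraries, and their part in the epithelial values was not tested. Pancreatic acinar genes summed to 32.3 to 41.4 TPM in wild type and 108 to 116 TPM in transgenic libraries. Most of the wild type sums was Cela1, Spink1 and Sycn, named after their values were seen. Their wild type means were 20.2, 8.88 and 4.77 TPM and their transgenic means 27.5, 23.8 and 16.5 TPM. Of 17, 4 had at least 1 TPM in both groups and all 4 rose, while 9 more were tested only through the transgenic group. Ctrb1, a chymotrypsinogen gene, had 0 and 377 reads per group, the colipase gene Clps 4 and 133 reads and the elastase gene Cela2a 31 and 294 reads. Neutrophil markers fell in 7 of 10 tested genes of 12 (sums 1026 to 1056 TPM in wild type and 434 to 489 TPM in transgenic libraries). S100a8 and S100a9 held most of these sums, at 409 and 439 TPM in wild type and 154 and 187 TPM in transgenic libraries. Csf3r, Cd177 and Padi4 were not called, and Ly6g was at 3.48 and 2.24 TPM.

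Counted at 1 TPM or more in both groups, fibroblast markers fell in 6 of 9 genes (10 listed, sums 192 to 197 TPM in wild type and 137 to 143 TPM in transgenic libraries), and endothelial markers in 4 of 5 (10 listed, sums 55.5 to 60.3 TPM in wild type and 34.8 to 39.4 TPM in transgenic libraries). On the same count T and NK cell markers rose in 2 of 7 genes (10 listed, sums 112 to 118 TPM in wild type and 123 to 131 TPM in transgenic libraries), with Ncr1 at 0 in wild type libraries. Most of each sum was Cd4, which was not called and had means of 87.4 (wild type) and 89.6 TPM (transgenic). Cd3d, Cd3e and Cd3g were far lower, with wild type means of 3.96, 6.30 and 6.05 TPM and transgenic means of 4.25, 7.02 and 7.83 TPM. The size of these sums is thus mainly that of Cd4. Of 8 B and plasma cell markers 1 rose (sums 233 to 247 TPM in wild type and 273 to 288 TPM in transgenic libraries). These marker counts stand beside 8.71% higher and 13.2% lower over all tested genes, a share taken at 1 TPM in either group. Erythrocyte markers rose in 4 of 4 tested genes of 5 (sums 19.6 to 29.9 TPM in wild type and 47.9 to 55.3 TPM in transgenic libraries). Of 12 macrophage markers 4 rose and 5 fell (sums 20095 to 20328 TPM in wild type and 19496 to 19596 TPM in transgenic libraries), and the fall of Cd68 turned to a higher value with upper-quartile scaling and lost its call without any 1 library other than wild type replicate 3. The sums of fibroblast, endothelial, neutrophil and macrophage markers were thus lower in transgenic libraries, as was the epithelial sum. Those of pancreatic, erythrocyte, T and NK cell, and B and plasma cell genes were higher. Of these, the macrophage sum changed least, with a transgenic mean of 0.968 times the wild type mean.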

How the data were processed

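The submitters' processing notes name bcl2fastq, STAR, HOMER 4.11.1, DESeq2 and mm10. The TPM values were deposited by the authors as exon-level levels. Low values were whole multiples of 1 read (tolerance 0.1, 100% of values up to 1000 reads). This gave reads per gene, 79.5% to 81.3% of the library totals per the file headers. Where 0 reads were found, the limit is 3 reads (counting error only). The authors also deposited log2 values, log2 fold changes and an adjusted p-value, used here as alternatives.

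A gene entered the test where either group averaged 1 TPM or more. limma 3.58.1 (R 4.3.3, with trend) was run on log2(TPM + 1), with Benjamini-Hochberg adjusted p over all 12633 genes, after a check on simulated data. The pseudocount of 1 understates changes of low genes. Promoters came from RefSeq. The members and lists were chosen with earlier results of these data known. All 38 members are named, and of each further epithelial list the 3 tested genes with the lowest unadjusted p plus up to 2 called in the minority direction. The genotype label of 2 transgenic libraries ends in another digit than their titles, and titles were followed.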

Additional observations from a re-analysis of the deposited data

How the results depend on the processing

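Over 15 alternatives (pseudocount, filters, scalings, each library left out, replicate block, no trend, the authors' log2 values and the authors' deposited comparison) 25 of 30 called genes kept their call, while Epcam, Elf3, Muc13, Tff3 and Fcgbp lost it somewhere and Cdh1, Krt18, Cldn3, Cdx1 and Car4, not called here, were called somewhere. The cause was not tested. Upper-quartile scaling moved the median log2 fold change of all genes by 0.085 and gave 2145 genes higher and 914 lower, a median of -0.30 over the 38 genes, and ratios of summed TPM (transgenic over wild type) of 0.808 for junction and keratin, 0.517 for absorptive, 1.34 for goblet and 0.679 for antimicrobial genes. It also reversed Clca1 (0.0302) and Cd68 (0.0401). The authors' log2 values gave 2783 genes lower and a median of -0.27, and the authors' deposited comparison 2592 lower. Muc2 reversed on both (-0.0274 and -0.0308). With a library left out, 704 to 883 genes were called higher, and the log2 fold change of Muc2 ran from -0.0116 to 0.0273. The replicate block gave 4 higher and 26 lower of the 38 genes, as without it, and 922 higher and 1457 lower of all genes. Same-numbered libraries did not deviate together (r of -0.01, -0.04 and 0.03), so the numbers were not taken as pairs, and not every library correlated best with its own number. Reg3g in transgenic libraries, with 49 reads in all, was among the values that depth limits most.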
